A study of Mus musculus with 18 samples.

Results

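The annexins are proteins that bind acidic phospholipids of membranes when calcium is present, and 8 of their genes were followed in the livers of mice: Anxa1, Anxa2, Anxa3, Anxa4, Anxa5, Anxa6, Anxa7 and Anxa11. They were taken by symbol from the 55487 genes of a table of read counts. The table covers livers of 18 male C57BL/6J mice. Each mouse gave 1 library, and 3 groups of 6 mice were compared. Mice bought at an age of 7 weeks were injected with an adeno-associated virus of serotype AAV8, and all groups carried such a vector, whose TBG promoter is active in hepatocytes. CON-GFP mice received the GFP vector and a purified control diet, FPC-GFP mice the same vector and the FPC diet, which is high in fat and enriched in fructose, palmitate and cholesterol, with sugar in the drinking water, and FPC-LIPA mice the FPC diet and a vector with human LIPA, the gene of lysosomal acid lipase. The vectors were given 1 week before the diets, which lasted 16 weeks, and livers were taken after a 4 h fast. A control-diet group with the LIPA vector was not analysed here, so the effect of LIPA was read on the FPC diet only.

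An annexin has a conserved core that docks on membranes and a variable N-terminal tail that binds partners such as S100 proteins. Members of the family take part in membrane repair, vesicle and endosome traffic, the control of plasmin at cell surfaces and the resolution of inflammation. Annexin A5 is widely known as the protein used to stain phosphatidylserine on dying cells. In liver, hepatocytes express some annexins and macrophages, stellate, endothelial and bile duct cells others, so an annexin level in whole tissue adds up several cell types. Fewer cells of a type and less RNA per cell cannot be told apart in such bulk samples.

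The 18 libraries held 16632146 to 37739301 counts. The summed level of 5 hepatocyte markers (Alb, Ttr, Apoa1, Tat and Cps1) was between 44178 and 91096 counts scaled to library size (CPM) in every library, none was at 0, and 1 of them fell on the FPC diet. Libraries of the FPC-LIPA group were not alike. The 84 genes of cytosolic ribosomal proteins took 6.48%, 8.09% and 8.15% of the counts in FPC-LIPA mice 36, 37 and 39, against 2.16% to 2.95% in mice 31, 33 and 34, 1.44% to 1.80% in FPC-GFP and 1.75% to 2.54% in CON-GFP. The part of this difference in the results on LIPA was not tested, and calls on LIPA that were lost without mice 36, 37 and 39 are given as such. That fit holds 3 FPC-LIPA libraries, and 1.11% of its tested genes passed as higher, against 14.4% with all 6. Mouse Lipa, which is not the gene of the vector and so does not check it, was at 243, 336 and 300 CPM on average in CON-GFP, FPC-GFP and FPC-LIPA.

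In the GRCm38 genome, with GENCODE M21 gene models, the members lie on 7 chromosomes, and Anxa7 and Anxa11 share a chromosome. Anxa1 is at chr19:20373428-20390944 on the minus strand, Anxa2 at chr9:69453620-69491795 on the plus strand, Anxa3 at chr5:96793339-96845966 on the plus strand and Anxa4 at chr6:86736840-86793584 on the minus strand. Anxa5 is at chr3:36448923-36475894 on the minus strand, Anxa6 at chr11:54979108-55033445 on the minus strand, Anxa7 at chr14:20455260-20480133 on the minus strand and Anxa11 at chr14:25842156-25886804 on the plus strand. Of the genes that overlap them, only Gm44036, which shares 75 exonic bases with Anxa4 on the other strand, had any counts, 34 over all libraries against 27757 for Anxa4.

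Start regions of the 3 annexins with the clearest rise on the FPC diet (Anxa2, Anxa5 and Anxa7) are shown for the motifs in them. RefSeq windows of GRCm38.p6 around the start site were at hand for 6 of the 8 members, 8 windows in all, and the stretch printed is the part of the window before the first exon, read 5′ to 3′ on the strand of the gene. Capitals mark GGGCGG or its reverse complement (a GC box, the site of SP1-like factors) and TGANTCA (AP-1, the site of FOS and JUN factors). The Anxa2 stretch is chr9:69453433-69453619 on the plus strand, that of Anxa5 is chr3:36475895-36476137 on the minus strand, and that of Anxa7 is chr14:20480134-20480383 on the minus strand.
Anxa2: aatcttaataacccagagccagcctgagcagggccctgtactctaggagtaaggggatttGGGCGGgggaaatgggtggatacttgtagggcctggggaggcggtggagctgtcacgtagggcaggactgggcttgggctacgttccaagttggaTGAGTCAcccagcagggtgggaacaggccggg
Anxa5: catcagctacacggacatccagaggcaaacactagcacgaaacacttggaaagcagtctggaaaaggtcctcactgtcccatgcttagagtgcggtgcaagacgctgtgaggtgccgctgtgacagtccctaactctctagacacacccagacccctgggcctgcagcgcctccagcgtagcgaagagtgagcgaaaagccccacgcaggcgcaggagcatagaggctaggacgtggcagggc
Anxa7: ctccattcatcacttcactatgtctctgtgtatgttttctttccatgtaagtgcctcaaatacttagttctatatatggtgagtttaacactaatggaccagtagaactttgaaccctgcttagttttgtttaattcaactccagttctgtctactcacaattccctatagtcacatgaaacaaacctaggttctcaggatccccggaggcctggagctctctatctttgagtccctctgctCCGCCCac
Both strands were searched. The AP-1 letters were found in 1 of the 8 windows, that of Anxa2, at position -95 from the RefSeq start site, and in 7.81% of 32851 windows of all genes. The GC box was found for Anxa2, Anxa4, Anxa7 and Anxa11 and in 35.7% of all windows. TATAAA, the TATA box, stood in the windows of Anxa1 and Anxa2 and in 13.6% of all windows, and CACGTG, the E-box, in a window of Anxa7 and in 7.15% of all. These TATAAA and CACGTG matches lay outside the part of their window before the first exon. GAGGAAGT, letters of the myeloid factor PU.1, was found in no member window and in 3.2% of all windows. The Anxa5 window held none of these motifs. Motifs of different names did not overlap in the stretches shown.

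Between genes, levels were compared per exonic length, in TPM, which divide counts by exon length and scale each library to the same sum. The length merged the exons of all annotated transcripts of a gene, from 1777 bases for Anxa5 to 5991 for Anxa7. The order of the annexins rests on these lengths. In CON-GFP livers the most abundant annexins were Anxa5, at 71.6 ± 20.6 TPM (SD, n = 6), and Anxa6, at 67.2 ± 16.9 TPM, and these 2 overlapped. Anxa6, an endosomal annexin tied to cholesterol traffic, was above Anxa7 (38.2 ± 7.39 TPM) in all 6 livers. Anxa4 stood at 21.3 ± 2.97 TPM and Anxa2 at 15.5 ± 6.01 TPM, with overlapping ranges. The lowest were Anxa11 at 5.08 ± 1.82 TPM, Anxa1 at 2.93 ± 0.991 TPM and Anxa3 at 2.18 ± 0.705 TPM. Each neighbour in this low trio overlapped the next over livers, although within each of the 6 livers Anxa11 was above Anxa1 and Anxa1 above Anxa3.

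On the FPC diet the order of mean levels was that of CON-GFP but for Anxa2, which went from rank 5 to rank 3. In FPC-GFP livers Anxa5 reached 244 ± 103 TPM and was above every value of Anxa6 (98.6 ± 6.24 TPM). Anxa2 followed at 78.8 ± 63.2 TPM, with a range from 18.5 to 195 TPM that covered all values of Anxa6 and Anxa7 (68.9 ± 9.59 TPM). Anxa2 was above Anxa7 in 3 of 6 FPC-GFP livers, and its median (63.6 TPM) was below that of Anxa7 (69.7 TPM), so the rank of its mean rests on mouse 11, the highest liver. Anxa5 made up 44.0% ± 5.77 of the summed TPM of the 8 annexins in FPC-GFP, against 31.6% ± 2.92 in CON-GFP, and these ranges did not overlap (37.0% to 52.7% and 28.1% to 36.1%). The share of Anxa6 was 30.1% ± 4.29 in CON-GFP and 19.6% ± 5.21 in FPC-GFP. In FPC-LIPA livers Anxa5 was again first at 169 ± 106 TPM, and Anxa2 (63.7 ± 28.8), Anxa6 (59.5 ± 33.6) and Anxa7 (54.1 ± 14.1 TPM) overlapped. Anxa11 (4.13 ± 2.56 TPM) was the lowest there, under Anxa1 (7.64 ± 2.14) and Anxa3 (6.78 ± 1.71 TPM). TPM carry no correction for composition, so differences between groups were tested on counts.

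**Figure D1:**
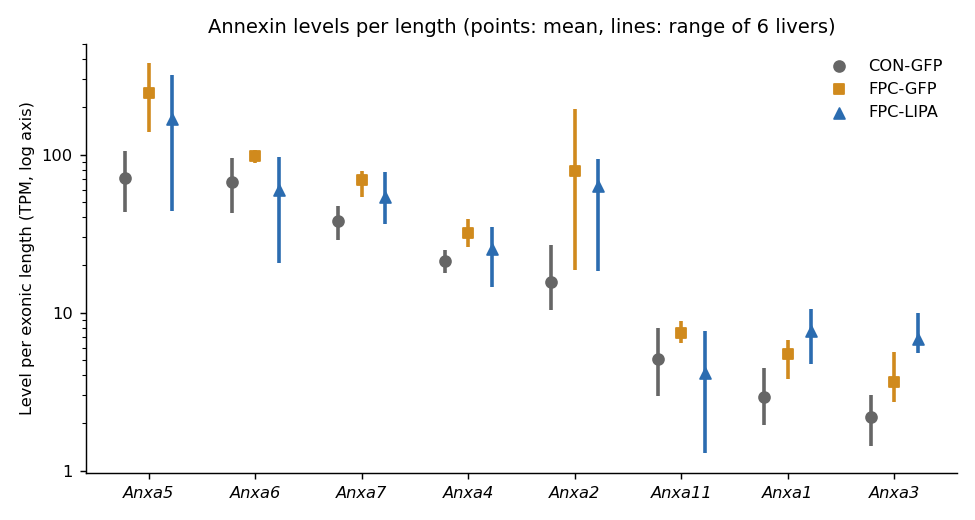
Level per exonic length of the 8 annexins (TPM, log axis) on the control diet (CON-GFP), on the FPC diet (FPC-GFP) and on the FPC diet with LIPA (FPC-LIPA). Points are the mean and lines the range of 6 livers. Anxa5 is highest in each group, and the mean of Anxa2 stands below that of Anxa4 in CON-GFP and above it in FPC-GFP, where the Anxa2 line runs from 18.5 to 195 TPM.

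FPC-GFP was compared with CON-GFP to read the effect of the diet under the GFP vector. Anxa1, Anxa2, Anxa5 and Anxa7 rose, and Anxa2 and Anxa5 rose more than 2-fold. Tests were edgeR's quasi-likelihood test with Benjamini-Hochberg adjustment over the 14307 genes tested, on the 12 libraries of both groups, and a gene passed at an adjusted p under 0.05. All 8 members were tested and all 8 had a log2 fold change above 0. The 4 that passed compare with 12.9% of all tested genes that passed as higher, and no member passed as lower, where 10.9% of tested genes did. Genes that also changed at least 2-fold were called differentially expressed (DE), as were 2 of the 8 annexins and, as higher, 4.76% of tested genes. The median log2 fold change was 0.50 over the 8 annexins and 0.01 over all tested genes.

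Anxa2 encodes the annexin that forms a complex with S100A10 and holds plasminogen and its activator at the cell surface. Its level in CON-GFP livers was 20.1 CPM at the lowest, 25.7 at the median and 41.0 at the highest. In FPC-GFP livers it was 26.7, 55.1, 86.4, 105, 128 and 296 CPM, the lowest in mouse 20 and the highest in mouse 11. The ranges overlapped through mouse 20 alone, since the other 5 FPC-GFP livers were above every CON-GFP liver. Anxa2 rose 4.17-fold, a log2 fold change of 2.06 (SE 0.42, edgeR adjusted p = 0.00352). Without FPC-GFP mouse 11 the log2 fold change was 1.53 (SE 0.31, edgeR adjusted p = 0.00431), and without mouse 20 it was 2.27 (SE 0.34, edgeR adjusted p = 0.000756).

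Anxa5 encodes the phosphatidylserine-binding annexin A5. It was at 44.0 to 75.9 CPM in CON-GFP livers (median 61.9) and at 96.3, 125, 144, 149, 240 and 266 CPM in FPC-GFP livers. Every FPC-GFP liver was above every CON-GFP liver. Such a complete separation upwards was seen for 2 annexins, Anxa5 and Anxa7, and in 6.19% of tested genes. Anxa5 rose 2.77-fold, a log2 fold change of 1.47 (SE 0.22, edgeR adjusted p = 0.000650). As for Anxa2, mouse 11 held the highest and mouse 20 the lowest FPC-GFP value.

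Anxa7, also called synexin, encodes an annexin that binds the calcium-binding proteins sorcin and ALG-2. It was at 89.7 to 121 CPM in CON-GFP livers (median 115) and at 129 to 181 CPM in FPC-GFP livers (median 170), with no overlap. The rise was smaller and more even than that of Anxa2 or Anxa5, 1.46-fold or 0.55 on the log2 scale (SE 0.11, edgeR adjusted p = 0.00331). Mouse 20, the lowest of its group for Anxa2 and Anxa5, had the highest Anxa7 value.

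Anxa1 encodes a glucocorticoid-inducible annexin that signals through formyl peptide receptors and restrains leukocyte entry. It was at 2.94 to 5.30 CPM in CON-GFP livers (median 3.81) and at 4.31 to 7.89 CPM in FPC-GFP livers (median 6.37), and the groups overlapped. Anxa1 rose 1.54-fold, 0.62 on the log2 scale (SE 0.19, edgeR adjusted p = 0.0260). This call was lost when CON-GFP mouse 1 or 3 or FPC-GFP mouse 11 or 12 was left out, with edgeR adjusted p from 0.0530 to 0.0584, and in a fit of all 18 libraries (edgeR adjusted p = 0.132).

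The other 4 annexins did not pass on the diet. Anxa3, an annexin of neutrophils and other myeloid and endothelial cells, was at 3.79 ± 0.882 CPM on the control diet and at 5.22 ± 1.19 CPM on the FPC diet (log2 fold change 0.45, SE 0.19, edgeR adjusted p = 0.0924). Anxa4, an annexin of epithelia, was at 48.0 ± 3.82 and 58.3 ± 7.41 CPM (0.27, SE 0.11, edgeR adjusted p = 0.0716). For Anxa6 the values were 95.3 ± 20.3 and 114 ± 6.59 CPM (0.25, SE 0.13, edgeR adjusted p = 0.165). Anxa11, which encodes an ALG-2 partner that links RNA granules to lysosomes, was at 10.1 ± 2.96 and 12.2 ± 2.01 CPM (0.26, SE 0.18, edgeR adjusted p = 0.285). The CON-GFP and FPC-GFP ranges of each of these genes overlapped. Anxa4 passed without FPC-GFP mouse 11 (edgeR adjusted p = 0.0392) and Anxa6 without CON-GFP mouse 8 (edgeR adjusted p = 0.0399).

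**Figure D2:**
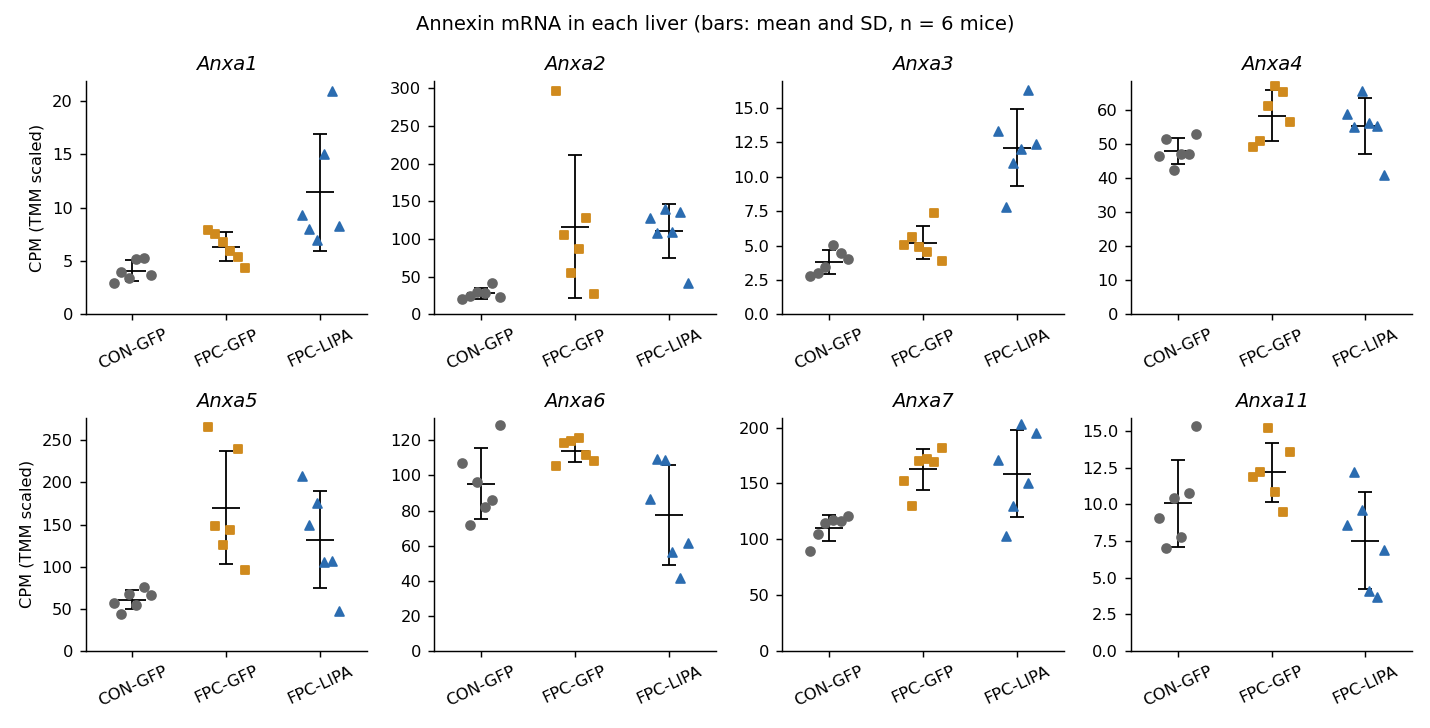
Level of each annexin in every liver (CPM after TMM scaling, linear axes from 0), with 6 livers in each group and bars at the mean and SD. Anxa5 and Anxa7 separate FPC-GFP from CON-GFP completely, and Anxa3 separates FPC-LIPA from FPC-GFP completely.

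FPC-LIPA was compared with FPC-GFP to read the effect of the LIPA vector on the FPC diet. Both comparisons use the FPC-GFP libraries, so their fold changes are not independent. Anxa3 rose more than 2-fold and Anxa1 rose 1.80-fold. The test was the same, over 14620 genes, and all 8 members were tested. Of them 2 passed as higher, where 14.4% of all tested genes did, and none passed as lower, where 6.87% did. Anxa3 was the 1 annexin called DE, beside 10.3% of tested genes that were DE as higher. The median log2 fold change was -0.07 over the 8 annexins and 0.04 over all tested genes, and the values of the members ranged from -0.69 for Anxa11 to 1.21 for Anxa3.

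Anxa3 was at 3.85, 4.55, 4.88, 5.05, 5.65 and 7.33 CPM in FPC-GFP livers and at 7.78, 11.0, 12.0, 12.4, 13.3 and 16.3 CPM in FPC-LIPA livers. Every FPC-LIPA liver was above every FPC-GFP liver, a separation that 3.81% of tested genes showed in this direction. The closest pair was FPC-LIPA mouse 33 and FPC-GFP mouse 19. Anxa3 rose 2.32-fold, a log2 fold change of 1.21 (SE 0.21, edgeR adjusted p = 0.00954). Without FPC-LIPA mice 36, 37 and 39 it rose by 1.04 on the log2 scale (SE 0.22, edgeR adjusted p = 0.0422). Anxa3 kept its call in all 12 fits that left out 1 library and in all 9 other alternative fits, with a log2 fold change between 1.03 and 1.33.

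Anxa1 was at 4.31 to 7.89 CPM in FPC-GFP livers (median 6.37). In FPC-LIPA livers it was at 7.00, 8.00, 8.31, 9.27, 15.1 and 20.97 CPM, the last 2 in mice 36 and 37. The groups overlapped. The count column of FPC-LIPA mouse 37, which held the highest value, was matched to a sample titled 37b. Anxa1 rose by 0.85 on the log2 scale (SE 0.27, edgeR adjusted p = 0.0413). The call was lost when any FPC-GFP mouse or FPC-LIPA mouse 36, 37 or 39 was left out, with edgeR adjusted p from 0.0568 to 0.0954. Without mice 36, 37 and 39 together the log2 fold change was 0.37 (edgeR adjusted p = 0.337), and it was 0.50 (edgeR adjusted p = 0.157) among libraries with sample sheet numbers from 55 to 68, which leave out FPC-GFP mouse 20 and FPC-LIPA mouse 37.

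Anxa6 and Anxa11 had the lowest log2 fold changes and did not pass. Anxa6 was at 105 to 121 CPM in FPC-GFP livers, and at 86.5, 110 and 109 CPM in FPC-LIPA mice 31, 33 and 34 against 56.3, 41.5 and 61.4 CPM in mice 36, 37 and 39. Its log2 fold change was -0.56 (SE 0.23, edgeR adjusted p = 0.0823), and -0.16 without mice 36, 37 and 39 (edgeR adjusted p = 0.526). Anxa6 was thus low in the same 3 livers whose ribosomal protein share was high. Anxa11 was at 9.46 to 15.2 CPM in FPC-GFP livers, at 8.61, 12.2 and 9.59 CPM in FPC-LIPA mice 31, 33 and 34, and at 4.11, 3.65 and 6.91 CPM in mice 36, 37 and 39. Its log2 fold change was -0.69 (SE 0.27, edgeR adjusted p = 0.0734), and -0.26 without mice 36, 37 and 39 (edgeR adjusted p = 0.468). Both passed as lower when FPC-LIPA mouse 33 was left out, with edgeR adjusted p of 0.0268 for Anxa6 and 0.0159 for Anxa11, and Anxa6 also passed without mouse 34 (0.0407). In these fits, in that order, 16.4% and 9.94% of all tested genes passed as lower, against 6.87% with every library.

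The 2 annexins that rose most on the diet did not pass with LIPA. Anxa5 was at 208, 149 and 176 CPM in mice 31, 33 and 34 and at 106, 106 and 47.0 CPM in mice 36, 37 and 39 (log2 fold change against FPC-GFP -0.36, SE 0.33, edgeR adjusted p = 0.421). Anxa2 was at 128, 108 and 139 CPM in mice 31, 33 and 34 and at 110, 135 and 41.3 CPM in mice 36, 37 and 39 (-0.07, SE 0.45, edgeR adjusted p = 0.918). Mouse 39 was the lowest FPC-LIPA liver for both genes. Without FPC-GFP mouse 11 the log2 fold change of Anxa2 was 0.46 and did not pass (edgeR adjusted p = 0.388). Anxa7 was at 103 to 203 CPM in FPC-LIPA livers (-0.03, SE 0.19, edgeR adjusted p = 0.917), and Anxa4 at 40.8 to 65.6 CPM (-0.07, SE 0.16, edgeR adjusted p = 0.744). With these SE, changes smaller than the spread between mice were not detectable for these 4 genes.

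**Figure D3:**
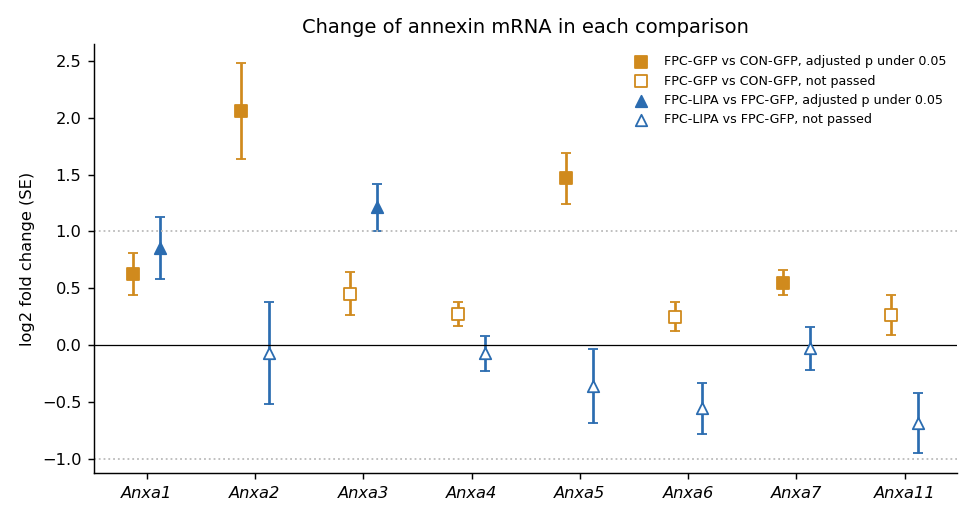
Log2 fold change of each annexin in FPC-GFP against CON-GFP (squares) and FPC-LIPA against FPC-GFP (triangles), with bars of 1 SE. Filled symbols passed at an adjusted p under 0.05 and dotted lines mark a 2-fold change. On the diet all 8 squares are above 0, and with LIPA the triangles run from -0.69 for Anxa11 to 1.21 for Anxa3.

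Likeness between annexins across the 18 livers was described by Pearson's r of log2 CPM over all livers and by the r left after group means were subtracted. The points share libraries and their depth, and r is given as a description. Anxa6 and Anxa11 were the closest pair, with r of 0.92 over 18 livers and 0.88 within groups. Anxa2 and Anxa5 followed with 0.88 and 0.81, so they also varied together among mice of a group. Anxa1 and Anxa3 had r of 0.87 over 18 livers and 0.60 within groups. Anxa1 ran against Anxa6, with -0.63 and -0.71, and against Anxa11, with -0.61 and -0.63. Subtracting group means did not remove differences within FPC-LIPA. Anxa6 averaged 53.1 CPM in FPC-LIPA mice 36, 37 and 39 and 101.7 CPM in mice 31, 33 and 34. In the same order Anxa11 averaged 4.89 and 10.1 CPM, and Anxa1 14.8 and 8.09 CPM. The part of this split in the r within groups, here and below, was not tested. Anxa5 and Anxa7, which both rose on the diet, had r of 0.38 over all livers and -0.35 within groups. The highest r of Anxa4 with another member was 0.65, with Anxa5, and that of Anxa7 was 0.54, with Anxa1.

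**Figure D4:**
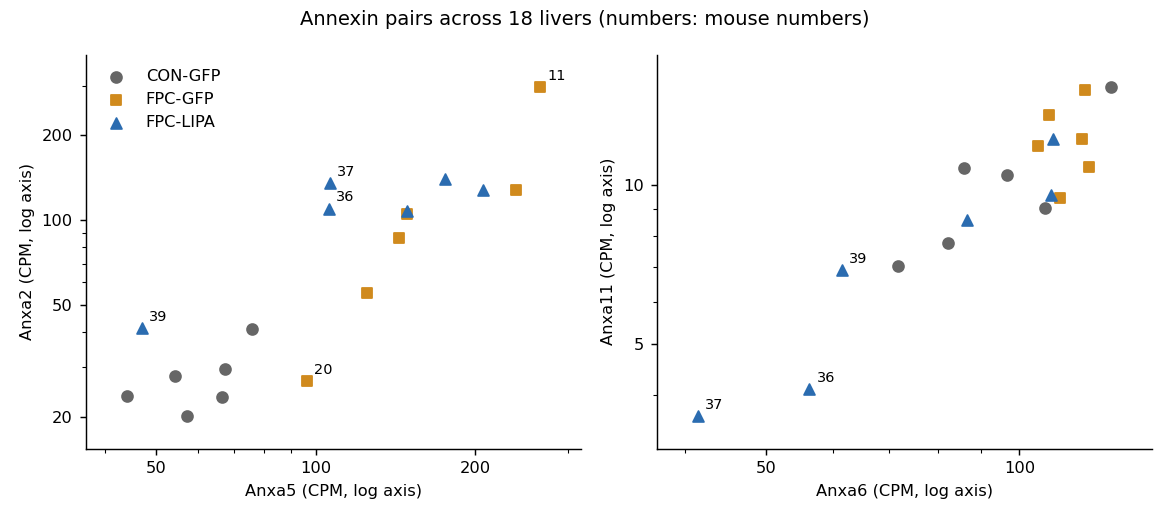
Anxa2 against Anxa5 (left) and Anxa11 against Anxa6 (right) in each of 18 livers (CPM, log axes), with some mouse numbers beside the points. FPC-GFP mice 11 and 20 hold the ends of their group on the left, and FPC-LIPA mice 36, 37 and 39 lie lowest on Anxa6 on the right.

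The genes whose pattern was most like each annexin, among 12741 genes with a mean of at least 1 CPM, were listed by the same r over 18 livers. For Anxa1 they were Tnfrsf11b (0.95), Lhfp (0.94) and the collagen gene Col3a1 (0.93). For Anxa3 they were Glipr1 (0.97), the matrix protein gene Sparc (0.96) and the macrophage lysozyme gene Lyz2 (0.95). For Anxa2 they were the tropomyosin gene Tpm1 (0.94), the basement membrane gene Nid1 (0.93) and Ccdc120 (0.92). Anxa5 was closest to Fkbp1a (0.94), Htra3 (0.92) and Jpt1 (0.91). The nearest genes of Anxa6 were Flot2, Eefsec and Rab11b (each 0.97), and those of Anxa11 were Nfic (0.96), Mknk1 (0.96) and Tnks1bp1 (0.95). Anxa7 was closest to the malic enzyme gene Me1 (0.87), Erlin1 (0.87) and Trip13 (0.85), and Anxa4 had the loosest neighbours, Sh3bgrl2 (0.80), Entpd5 (0.79) and Papss1 (0.77). Within groups the r of these genes with their annexin ran from 0.70 for Papss1 to 0.96 for Flot2. It was 0.73 for both Sparc and Lyz2 with Anxa3.

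Of the 4 other annexin genes in the table, Anxa8 fell on the FPC diet. It was at 0.815 to 3.03 CPM in CON-GFP livers and at 0.0312 to 0.542 CPM in FPC-GFP livers, a log2 fold change of -2.89 (SE 0.52, edgeR adjusted p = 0.00175). These levels are near the floor, with 20 to 80 counts in CON-GFP and 1 to 18 in FPC-GFP libraries. Of all tested genes 10.9% passed as lower on the diet. In FPC-LIPA livers it was at 0.181 to 1.04 CPM and too low to be tested against FPC-GFP. Anxa13, an annexin of gut and kidney epithelia, was at 0.803 ± 0.435 CPM in FPC-GFP and 1.80 ± 0.500 CPM in FPC-LIPA livers, where it rose by 1.14 on the log2 scale (SE 0.38, edgeR adjusted p = 0.0449), a call lost without mice 36, 37 and 39 (1.06, edgeR adjusted p = 0.219). Anxa9 was at 1.19, 1.35 and 1.15 CPM on average in CON-GFP, FPC-GFP and FPC-LIPA and passed in neither comparison. Anxa10 was at or near 0 in every library and was not tested.

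Partners of annexins were read from lists of genes. Over these lists and the other annexins, each with 2 to 9 tested genes, 13 calls were made with LIPA. Without FPC-LIPA mice 36, 37 and 39 there was 1, the rise of Plau. Of all tested genes, 14.4% passed as higher and 6.87% as lower with LIPA, and 1.11% and 0.112% without these mice. On the diet 12.9% passed as higher and 10.9% as lower. S100 proteins that bind annexin tails rose on the diet in 2 of 3 tested members. S100a11, whose protein binds annexin A1, was at 7.82 ± 2.61 CPM in control-diet livers and 47.6 ± 17.0 CPM in FPC-GFP livers and rose by 2.59 on the log2 scale (SE 0.26, edgeR adjusted p = 5.75e-05), and S100a6 rose by 0.83 (edgeR adjusted p = 0.0378). S100a10, the partner of annexin A2, had a log2 fold change of 0.60 on the diet (edgeR adjusted p = 0.178) and of 1.46 with LIPA (edgeR adjusted p = 0.0570). Without mice 36, 37 and 39 the value of S100a10 with LIPA was 0.22 (edgeR adjusted p = 0.814). S100a6 rose with LIPA by 0.77 (edgeR adjusted p = 0.0437), or by 0.71 with no call (edgeR adjusted p = 0.226) without mice 36, 37 and 39. Of the formyl peptide receptors, which annexin A1 engages, Fpr1 rose by 1.88 and Fpr2 by 1.79 on the diet (edgeR adjusted p = 0.000877 and 0.0164), at mean levels of 1.07 to 4.27 CPM in FPC-GFP, and neither of the 2 passed with LIPA.

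Plasminogen activation is the surface process in which annexin A2 takes part. On the diet 3 of 5 genes rose, each at a mean under 3 CPM in FPC-GFP, led by the urokinase receptor gene Plaur by 1.39 on the log2 scale (edgeR adjusted p = 0.0148) and the tissue plasminogen activator gene Plat by 1.25 (edgeR adjusted p = 0.0238). Plg, which encodes plasminogen itself and is the most abundant of the list, averaged 1924 ± 521 CPM on the control diet and 1391 ± 144 CPM on the FPC diet (log2 fold change -0.48, SE 0.18, edgeR adjusted p = 0.0602). With LIPA the urokinase gene Plau rose by 1.25 (edgeR adjusted p = 0.0118) and Plg fell by 0.73 (edgeR adjusted p = 0.0306). Without mice 36, 37 and 39 Plau kept its call (1.08, edgeR adjusted p = 0.0450) and Plg did not (-0.39, edgeR adjusted p = 0.197). The plasminogen receptor gene Plgrkt did not pass, with log2 fold changes of 0.24 on the diet and 0.56 with LIPA. Of 6 tested genes of membrane repair, 4 rose on the diet, led by the ferlin gene Myof at 1.10 (edgeR adjusted p = 0.00204) and by Dysf at 0.67 (edgeR adjusted p = 0.0401). The most abundant were Capns1, the small calpain subunit gene, which rose by 0.46 (edgeR adjusted p = 0.0335), and Capn2, with a log2 fold change of 0.31 (SE 0.14, edgeR adjusted p = 0.126). With LIPA Ahnak rose by 0.96 and Myof by 0.69, and the calpain gene Capn1 fell by 0.81 (edgeR adjusted p = 0.0307, 0.0395 and 0.0332). None of these 3 passed without mice 36, 37 and 39, with log2 fold changes of 0.29, 0.71 and -0.40 (edgeR adjusted p = 0.365, 0.107 and 0.163).

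ALG-2, encoded by Pdcd6, binds annexins A7 and A11. Pdcd6 fell by 0.52 on the diet (edgeR adjusted p = 0.0127), the 1 change among 8 genes of ALG-2 and the ESCRT machinery. With LIPA Pdcd6 rose by 0.97 and the sorcin gene Sri by 0.59, while Pdcd6ip, the gene of ALIX, fell by 0.56 (edgeR adjusted p = 0.0326, 0.0451 and 0.0387). Without mice 36, 37 and 39 the log2 fold changes of these 3 were 0.15, 0.23 and -0.34, and none passed (edgeR adjusted p = 0.639, 0.408 and 0.196). Genes of phosphatidylserine recognition share a ligand with annexin A5, and 4 of 8 tested rose on the diet. These were Gas6 at 1.25 and its receptor gene Axl at 1.13 (edgeR adjusted p = 0.00104 and 0.000439), with Timd4 and Mfge8, and none of 9 passed with LIPA. Pros1, the gene of the bridging protein S, was at 48.2 ± 6.32 CPM in CON-GFP livers and 47.1 ± 4.12 CPM in FPC-GFP livers.

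Annexin A1 is known to restrain phospholipase A2 and to be induced by glucocorticoids. Of 4 tested genes of arachidonate release and use, Pla2g4a, the gene of cytosolic phospholipase A2, rose by 1.03 and Ptgs1 by 0.65 on the diet (edgeR adjusted p = 0.0152 and 0.0219). With LIPA 3 of 4 rose, Pla2g4a by 1.86, Ptgs1 by 1.15 and Alox5ap by 0.66 (edgeR adjusted p = 0.0141, 0.0136 and 0.0438). None passed without mice 36, 37 and 39, with log2 fold changes of 1.08, 0.90 and 0.86 (edgeR adjusted p = 0.101, 0.0650 and 0.0762). Of 5 genes of glucocorticoid response, 3 fell on the diet. They were Tsc22d3 by 1.88, Dusp1 by 0.96 and the receptor gene Nr3c1 by 0.53 (edgeR adjusted p = 0.000123, 0.00423 and 0.0325), and none of the 5 passed with LIPA. A link of these genes with the level of Anxa1 was not tested.

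On the diet the median log2 fold change was 0.83 for the S100 partners, 1.83 for the formyl peptide receptors, 0.90 for plasminogen activation, 0.54 for membrane repair, 0.06 for ALG-2 and ESCRT, 0.46 for phosphatidylserine recognition, 0.55 for arachidonate use and -0.95 for glucocorticoid response, beside 0.01 for all tested genes. With LIPA the medians of the same lists, in that order, were 0.77, 0.83, 0.56, 0.16, 0.09, 0.04, 0.90 and 0.27, beside 0.04 for all tested genes. Each median is over 2 to 9 genes. With all libraries of each comparison, the glucocorticoid genes on the diet were the 1 list of these with a median below that of all tested genes.

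**Figure D5:**
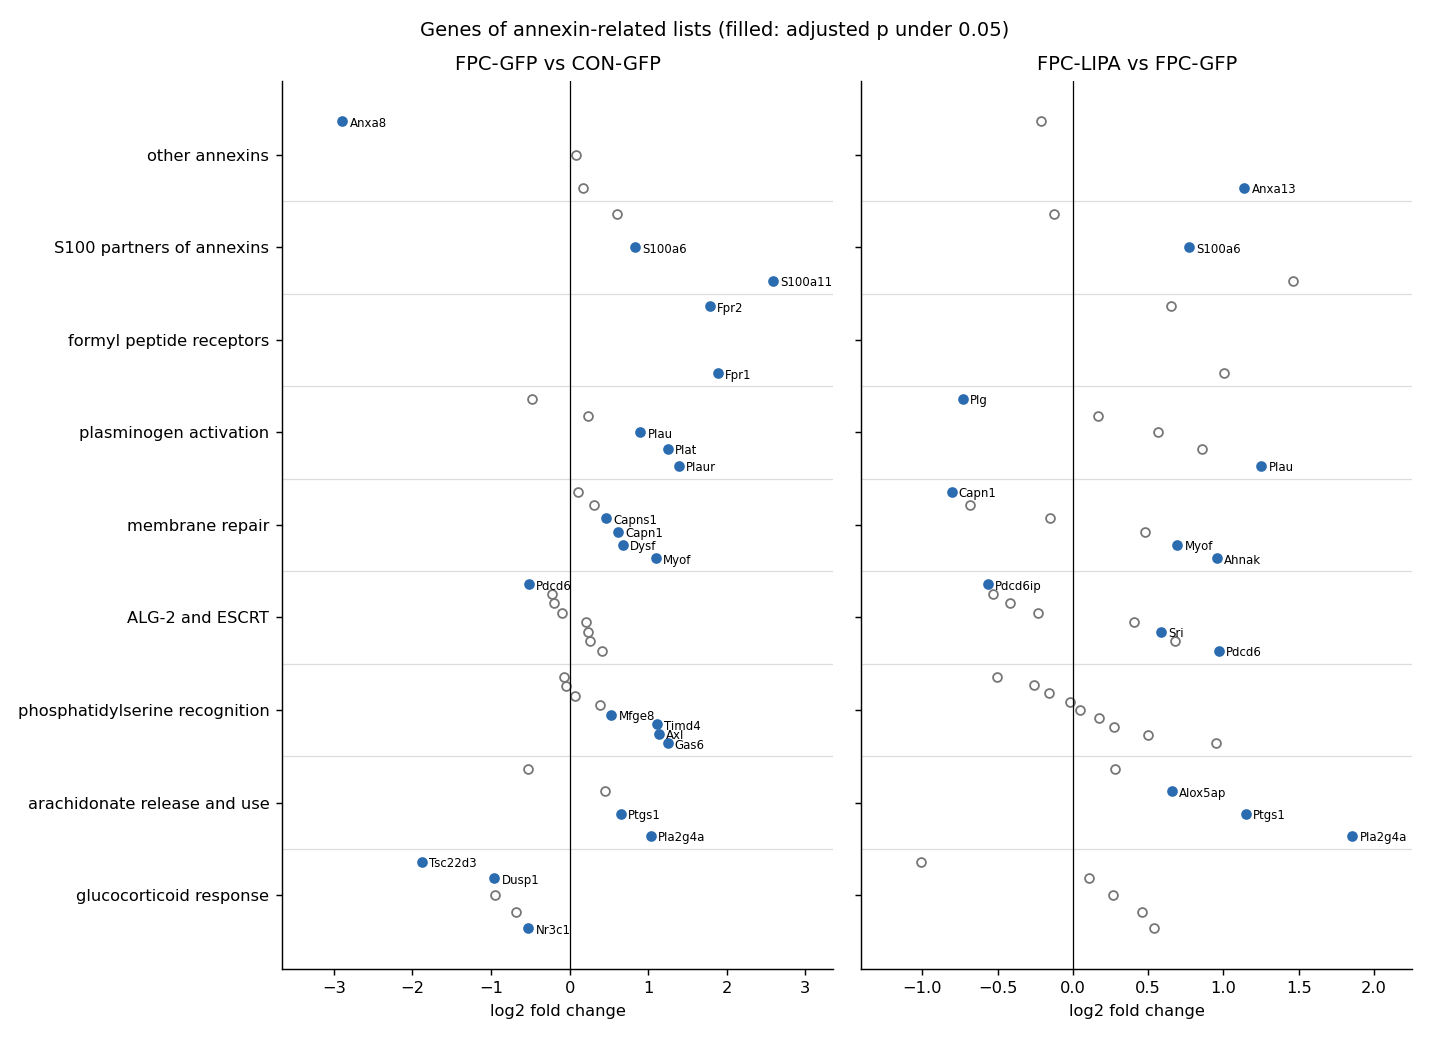
Log2 fold change of tested genes from the other annexins and 8 lists of annexin-related genes, in FPC-GFP against CON-GFP (left) and FPC-LIPA against FPC-GFP (right). Filled points passed at an adjusted p under 0.05 and are named. S100a11 is the highest point on the left and Pla2g4a on the right.

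Markers of other liver cells moved in the same comparisons as the annexins. On the diet 5 of 5 Kupffer cell markers and 5 of 8 monocyte and macrophage markers rose, and their summed levels went from 100 to 211 CPM in CON-GFP to 300 to 504 CPM in FPC-GFP for the first list, and from 53.5 to 122 CPM to 147 to 386 CPM for the second. In FPC-LIPA these sums were 406 to 839 and 444 to 756 CPM, with 3 of 5 and 3 of 8 markers higher than in FPC-GFP. Most of the second sum came from Lyz2, at 49.7 ± 14.9, 136 ± 67.4 and 500 ± 155 CPM in CON-GFP, FPC-GFP and FPC-LIPA. Csf1r, the next most abundant of that list, averaged 61.7 CPM in FPC-GFP and 56.1 CPM in FPC-LIPA and did not pass with LIPA (edgeR adjusted p = 0.808). Endothelial markers rose in 3 of 5 on the diet and 0 of 5 with LIPA (sums of 94.2 to 164, 144 to 189 and 175 to 296 CPM in CON-GFP, FPC-GFP and FPC-LIPA). Stellate and fibroblast markers rose in 3 of 7 in each comparison (169 to 285, 229 to 297 and 308 to 1079 CPM), but only Col3a1 rose in both. With LIPA 3 of 7 had a log2 fold change above 0, and the median of the list was -0.13. Most of the FPC-LIPA sum came from Dcn and Col3a1, at 256 ± 160 and 150 ± 134 CPM. Col1a1 averaged 13.7 CPM in FPC-GFP and 12.0 CPM in FPC-LIPA. Bile duct markers rose in 1 of 5 on the diet and 0 of 5 with LIPA (28.1 to 47.0, 41.4 to 107 and 38.0 to 210 CPM). Most of the bile duct sums came from that 1 gene, Spp1, which other cells also express, at 31.6 ± 6.12, 61.5 ± 23.6 and 78.8 ± 64.6 CPM, while Epcam, Krt7, Krt19 and Sox9 did not pass. Neutrophil markers summed to at most 3.86, 5.80 and 20.2 CPM in the 3 groups, with 1 of 6 at 0 in each group, and 2 rose with LIPA. The leukocyte gene Ptprc was at 6.26, 8.87 and 28.2 CPM on average and rose with LIPA. Its median in FPC-LIPA was 20.1 CPM, and it reached 76.6 CPM in mouse 37, the liver with the highest Anxa1 and Anxa3. That library also had the lowest total, 16632146 counts, and a ribosomal protein share of 8.09%. Summed red cell markers were at 283 to 475 CPM in FPC-GFP and 520 to 2676 CPM in FPC-LIPA, with 2 of 5 higher. Most of the FPC-LIPA sum came from Hbb-bs, at 106 ± 28.3 CPM in FPC-GFP and 1059 ± 785 CPM in FPC-LIPA. Alas2 was at 114 ± 15.0 and 74.6 ± 28.1 CPM in these groups and did not pass (edgeR adjusted p = 0.0870). Lymphocyte and mesothelial markers were low, with sums of at most 20.0 CPM in every library. Of the tested genes of these lists, 1 of 3 for T and NK cells fell on the diet, and 1 of 4 for T and NK cells, 2 of 4 for B cells and 1 of 2 for mesothelium rose with LIPA. Fat cell and pancreas markers were not tested and had sums of at most 10.1 CPM. Without mice 36, 37 and 39 the calls with LIPA over all cell type lists went from 18 to 9, and those over all tested genes from 3102 to 186. The 9 were 2 Kupffer cell, 1 monocyte and macrophage, 3 red cell and 2 mesothelial markers and Ptprc (1.14 on the log2 scale, edgeR adjusted p = 0.0325), and none for stellate cells, neutrophils, T and NK cells or B cells. Among the 9, Hba-a2 and Upk3b passed only without these mice (edgeR adjusted p = 0.0425 and 0.0279). With all libraries their edgeR adjusted p were 0.0731 and 0.0963. The part of these cells in the annexin results was not tested.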

How the data were processed

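Liver RNA of 18 mice was sequenced by the authors as paired-end libraries from TruSeq RNA or stranded mRNA kits. Which library came from which kit, the strand setting, the annotation version and the handling of reads with several hits are not given in the sources used here. The authors trimmed reads with Trimmomatic, mapped them with HISAT2 2.1.0 to GRCm38 and deposited raw counts per gene from Feature Counts, without normalization. Of 23 count columns, 18 were matched to mice by condition and mouse number and 5 were not used. The column of FPC-LIPA mouse 37 was matched to a sample titled 37b, whose sample sheet number, 228, lies apart from those of the other libraries.

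Libraries were compared with edgeR 4.0.16 in R 4.3.3 (filterByExpr, TMM scaling, quasi-likelihood test, Benjamini-Hochberg adjustment over all tested genes), on the 12 libraries of each comparison, and the script was tested on simulated data. CPM were scaled by TMM over 18 libraries, log2 CPM used a prior count of 2, and TPM used merged GENCODE M21 exons, found for 55141 genes. The SE was derived from the log2 fold change and the F statistic of the quasi-likelihood test. Totals of 16632146 to 37739301 counts set the depth.

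The members and gene lists were chosen with earlier results of these data known. Named genes were the 8 members, the 3 genes most like each, and of each list the 2 most abundant genes and the 2 largest changes that passed in each comparison. Anxa10, Mfge8, Timd4, Alox5ap, Nr3c1, Epcam, Krt7, Krt19, Hba-a2, and Myof with LIPA, were named outside this rule after their values were seen. The lists were other annexins, S100 partners, formyl peptide receptors, plasminogen activation, membrane repair, ALG-2 and ESCRT, phosphatidylserine recognition, arachidonate use, glucocorticoid response and markers of cell types. A gene of 1 list is not reported here.

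Alternatives were scaling by library size only or by DESeq2 size factors, the Wald test of DESeq2 1.42.0, a filter of 1 CPM in 6 libraries or none, one fit of all 18 libraries, sample sheet numbers from 55 to 68, removal of the trend on gene length, leaving out FPC-LIPA mice 36, 37 and 39, and leaving out each library. Figures were drawn with matplotlib 3.10.9.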

Additional observations from a re-analysis of the deposited data

Results flagged for a closer look

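In groups of 6 livers, a value was marked when its gap to the nearest other value was large for the range of the group by Dixon's criterion at the 95% level. Of 24 groups (8 annexins in 3 groups of mice) 1 was marked, and chance marks about 1 in 20. It was Anxa2 in FPC-LIPA mouse 39, at 41.3 CPM, where the other 5 FPC-LIPA livers were at 108 to 139 CPM. The same liver had the lowest Anxa5 of all FPC-LIPA livers, at 47.0 CPM, and the highest ribosomal protein share, at 8.15%. Without mouse 39 the log2 fold change of Anxa2 against FPC-GFP was 0.09 (edgeR adjusted p = 0.893). The cause was not tested.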

How the results depend on the processing

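The rises of Anxa2, Anxa5 and Anxa7 on the diet and of Anxa3 with LIPA passed in every alternative fit, and the DE counts (2 on the diet, 1 with LIPA) did not change in any. With library size alone, which moved the median log2 fold change of all genes to 0.21 on the diet and -0.09 with LIPA, 7 of 8 annexins passed on the diet in place of 4, while the share of all tested genes that passed as higher went from 12.9% to 23.7%. With LIPA 1 annexin, Anxa3, passed in place of 2 with library size alone, with no low-count filter, with sample sheet numbers from 55 to 68, with the length trend removed and without FPC-LIPA mice 36, 37 and 39, and 4 passed (Anxa1, Anxa3, Anxa6 and Anxa11) with all 18 libraries in one fit. The DESeq2 test also called Anxa11 (DESeq2 adjusted p = 0.0494). Leaving out 1 library gave 3 to 5 annexins on the diet and 1 to 4 with LIPA, the 4 without FPC-LIPA mouse 33 and the 1 without any FPC-GFP mouse or FPC-LIPA mouse 36, 37 or 39. The calls over all tested genes moved as well. With LIPA 14.4% passed as higher and 6.87% as lower in the main fit. These shares were 21.6% and 16.4% without mouse 33, and 18.8% and 12.6% with all 18 libraries in one fit. They were 19.1% and 11.1% in the DESeq2 test, and 6.01% and 1.4% without mouse 36. Signs turned for 4 annexins that did not pass with LIPA. Without FPC-LIPA mice 36, 37 and 39 the log2 fold change was 0.126 for Anxa2, 0.0425 for Anxa4 and 0.0749 for Anxa5. With 1 library left out it lay from -0.283 to 0.46 for Anxa2, above 0 without FPC-GFP mouse 11 and, at 0.09, without FPC-LIPA mouse 39. For Anxa7 it was 0.0065 with sample sheet numbers from 55 to 68, 0.0558 with the length trend removed, and from -0.123 to 0.0664 with 1 library left out, above 0 without FPC-LIPA mouse 33 and, at 0.0058, without mouse 34. The cause was not tested. Over all genes, calls with LIPA went from 3102 to 104 with sample sheet numbers from 55 to 68 and to 186 without mice 36, 37 and 39, fits that also hold fewer libraries. Fits of the related gene lists without these mice were added after the data were seen. No paired analysis was possible because the groups share no mouse numbers. Anxa1, Anxa3 and Anxa11 had mean levels of 3.79 to 12.2 CPM, and the other members were higher.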
